A study of Mus musculus with 15 samples.

Results

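The BCL2 family comprises the proteins that decide whether a cell opens the outer membrane of its mitochondria and dies by apoptosis, and Mcl1 is the member on which plasma cells and myeloma cells are known to depend. The 10 genes Mcl1, Bcl2, Bcl2l1, Bcl2l2, Bax, Bak1, Bcl2l11, Bbc3, Pmaip1 and Bid were taken by name from a table of 32371 gene names and followed across 5 lines of mouse myeloma cells, named IL6Myc-1 to IL6Myc-5. All 10 were found, under the table's capital spelling (MCL1, BCL2, BCL2L1, BCL2L2, BAX, BAK1, BCL2L11, BBC3, PMAIP1 and BID). Bcl2l2 stood in the table as 2 entries, which were kept apart, so that the family filled 11 of 32434 entries, and all 11 passed the filter on low values (at least 1 CPM, the count scaled to a common library size, in at least 3 libraries). Each line carried the IL6Myc genotype and came from mice of that name, which have an intact immune system and develop multiple myeloma, the cancer of plasma cells. No treatment, mouse age, transgene promoter or culture condition is given in the labels, and no normal plasma cell was part of the panel, so that levels could be compared between the lines alone. Each line is a single biological unit with 3 technical replicate libraries. The p-values below therefore measure the spread between technical replicates, and a difference between lines is a difference between those particular lines.

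The family has 3 kinds of member. Mcl1, Bcl2, Bcl2l1 (the gene of BCL-XL) and Bcl2l2 (the gene of BCL-W) encode anti-apoptotic proteins that hold the others in check. Bax and Bak1 encode the proteins that form the pore. Bcl2l11 (BIM), Bbc3 (PUMA), Pmaip1 (NOXA) and Bid encode BH3-only proteins, which sense stress and either neutralise the anti-apoptotic proteins or activate the pore formers. NOXA is known to bind MCL1 preferentially, whereas BIM and PUMA bind all of the anti-apoptotic members. MCL1 protein is short-lived and is controlled strongly by its degradation, which RNA measurements do not see.

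The 15 libraries held 19068543 to 41165599 estimated counts. The lines carried the RNA of plasma cells: 9 of 9 plasma cell markers, among them Sdc1, Xbp1, Irf4 and the immunoglobulin genes, reached at least 1 CPM in every line. Markers of other cells were low. The summed level of 8 T and NK cell markers ran from 3.13 to 30.5 CPM over the libraries, with Gzmb and Ncr1 at 0 counts in every line. Most of it came from Cd3g and Cd3d in IL6Myc-1, IL6Myc-2 and IL6Myc-4. In IL6Myc-3 and IL6Myc-5, where the sum was lowest, Lck (2.17 and 1.32 CPM) and Cd4 (1.5 and 0.896 CPM) also held much of it. The sum of 8 myeloid markers ran from 1.11 to 11.9 CPM, mostly from Itgam, with S100a8 at 0 counts in every line. The sum of 6 stromal and endothelial markers was 14.3 to 27.2 CPM, nearly all from Pecam1, and 5 erythroid markers summed to at most 0.743 CPM.

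Mcl1 was the family member that differed most, and it was high in IL6Myc-5. Its level was 1843, 1947 and 1919 CPM in the 3 libraries of IL6Myc-5. In IL6Myc-4 it was 611, 662.5 and 662 CPM, and in IL6Myc-2 it was 618, 662.5 and 637 CPM. In IL6Myc-1 the libraries held 532, 550 and 522 CPM, and in IL6Myc-3 they held 458, 484 and 445 CPM. All 3 libraries of IL6Myc-5 thus lay above all 12 others, with no overlap. The mean of 1903 ± 53.9 CPM (SD, n = 3) in IL6Myc-5 was 2.95-fold that of IL6Myc-4 and 4.12-fold that of IL6Myc-3, the lowest line. Against the mean of the other 4 lines the difference was 1.75 ± 0.03 on the log2 scale (SE, edgeR quasi-likelihood test, Benjamini-Hochberg adjusted p = 8.54e-17). Among the remaining lines the order was IL6Myc-3, IL6Myc-1, IL6Myc-2 and IL6Myc-4, and the libraries of IL6Myc-2 and IL6Myc-4 overlapped and did not differ beyond their spread (adjusted p = 0.803).

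**Figure D1:**
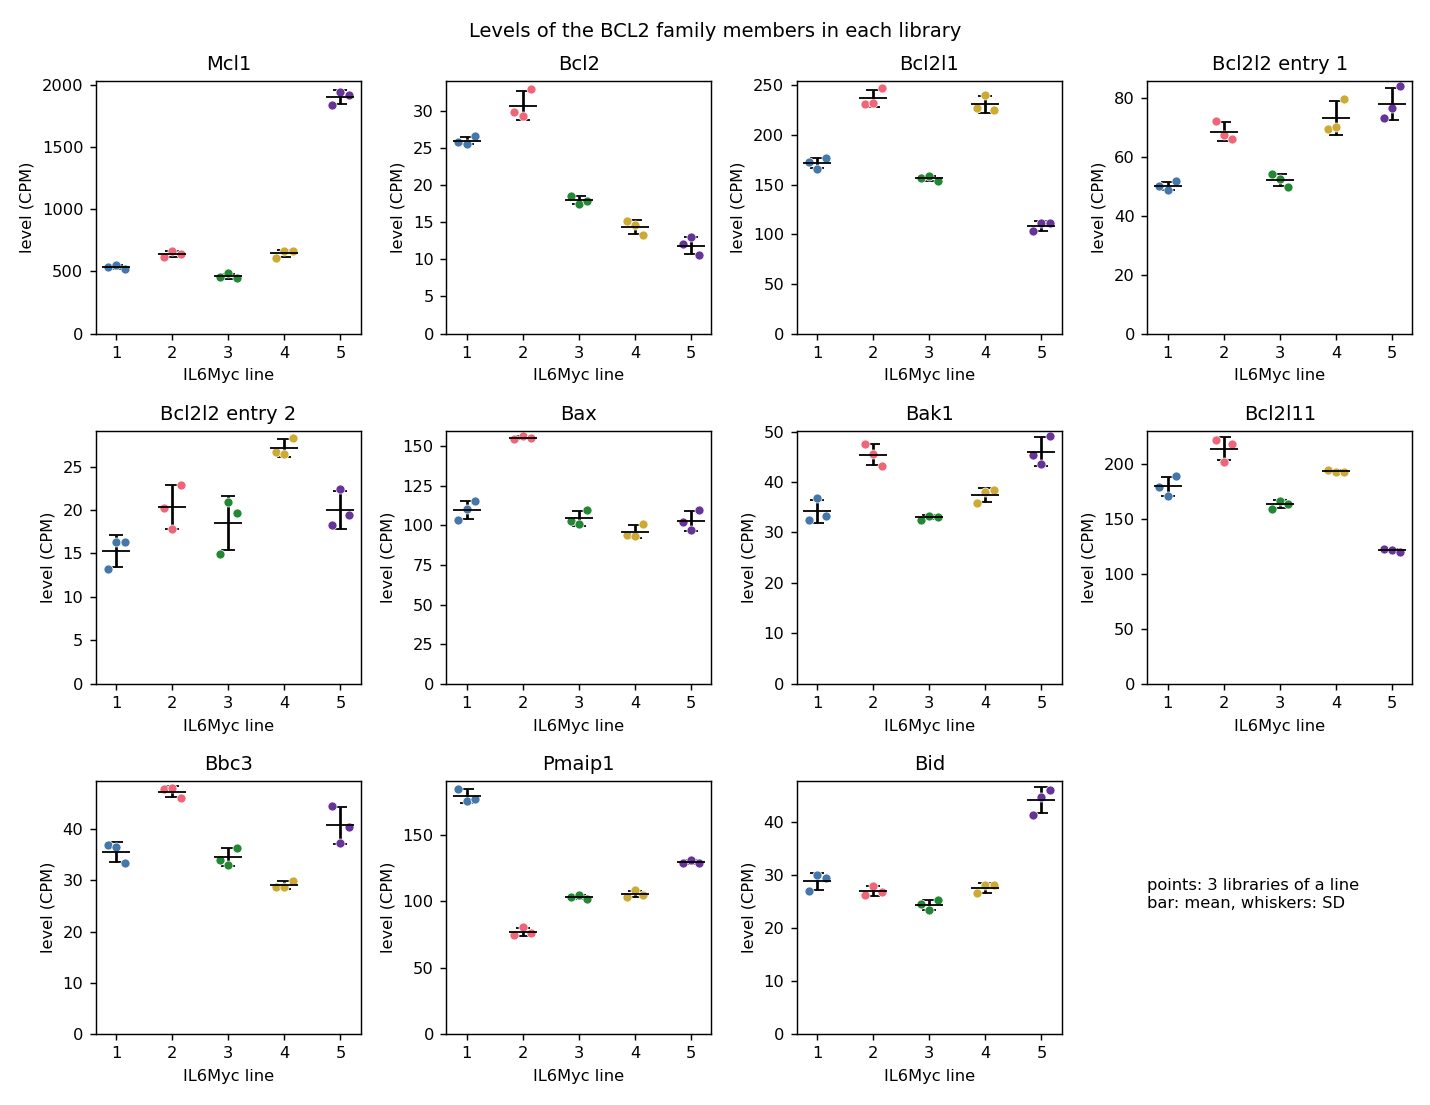
Level of each family entry, 1 panel each (y axis, CPM from 0; x axis, the 5 lines; points, 3 technical replicate libraries per line; bars, means; whiskers, SD). The 3 libraries of IL6Myc-5 lie at 1843 to 1947 CPM for Mcl1, above all others, whereas Bcl2, Bcl2l1 and Bcl2l11 have their lowest libraries there.

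A gene was called different where its adjusted p was under 0.05 and its log2 difference at least 1, that is 2-fold. The test over all 5 lines asked for any difference among them, and the size was the log2 range from lowest to highest line. In that comparison 4 of 11 entries were called: Mcl1 (log2 range 2.04), Bcl2 (1.38), Pmaip1 (1.22) and Bcl2l1 (1.13). Of all genes tested, 32.1% were called in the same way, so the share of called members lay near the background. The median log2 range was 0.84 over the members and 0.70 over all genes tested. Every member had an adjusted p under 0.05 in that test (11 of 11) as had 91.7% of all genes, so that the size of a difference separates the members better than its p. When each line was set against the mean of the other 4, Mcl1 in IL6Myc-5 was the single call among the 11 entries (1 higher, 0 lower; 4.8% of all genes were called higher there and 3.19% lower). No member was called in IL6Myc-1, IL6Myc-2, IL6Myc-3 or IL6Myc-4, where 12.5%, 12.7%, 7.65% and 9.65% of all genes were called in either direction. DESeq2 and limma gave 0 calls in these 4 lines as well. At an unadjusted edgeR p under 0.05 alone, 7, 10, 9 and 10 of the 11 entries passed there, all with log2 differences of at most 0.87.

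Bcl2 and Bcl2l1 were lowest in the line where Mcl1 was highest. Bcl2, the founding member of the family and the target of venetoclax, had its lowest level in IL6Myc-5, at 12.01, 12.95 and 10.6 CPM. It was highest in IL6Myc-2, at 29.8, 29.3 and 32.9 CPM, and next in IL6Myc-1, at 25.8, 25.6 and 26.5 CPM. IL6Myc-3 (17.9 ± 0.528 CPM) and IL6Myc-4 (14.4 ± 0.931 CPM, both SD, n = 3) lay between. The 5 lines stood apart in this order without overlap, and each differed from its neighbour. The mean of IL6Myc-2 was 2.59-fold that of IL6Myc-5. Bcl2 was 0.85 ± 0.07 lower on the log2 scale in IL6Myc-5 than in the mean of the other 4 lines (SE, edgeR adjusted p = 1.4e-08), which is below the size needed for a call. In pairs of lines it was called higher in IL6Myc-1 than in IL6Myc-5 (log2 difference 1.14), in IL6Myc-2 than in IL6Myc-5 (1.38) and in IL6Myc-2 than in IL6Myc-4 (1.09). The first and last of these calls were lost with limma on log2(CPM + 5), where both differences were 0.88.

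Bcl2l1 was also lowest in IL6Myc-5, although in the other 4 lines the ratio of Mcl1 to Bcl2l1 was a narrow 2.70 to 3.12. Its libraries held 103, 111 and 111 CPM there, against 231, 232.5 and 247 CPM in IL6Myc-2 and 227, 240.4 and 225 CPM in IL6Myc-4. IL6Myc-2 and IL6Myc-4 overlapped at the top and did not differ (edgeR adjusted p = 0.465), IL6Myc-1 held 171.5 ± 5.35 CPM and IL6Myc-3 held 156 ± 2.27 CPM (SD, n = 3). The 3 libraries of IL6Myc-5 lay below all others. The highest line stood 2.19-fold over the lowest, and IL6Myc-5 was 0.85 ± 0.04 lower on the log2 scale than the mean of the other lines (SE, adjusted p = 7.37e-12). Bcl2l1 was called lower in IL6Myc-5 than in IL6Myc-2 (log2 difference of IL6Myc-2 over IL6Myc-5 1.13) and than in IL6Myc-4 (1.09).

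Bcl2l2 varied less. The level of its first entry was lowest in IL6Myc-1, at 50.2 ± 1.39 CPM, and highest in IL6Myc-5, at 77.9 ± 5.52 CPM (SD, n = 3), a log2 range of 0.64. The second entry was also lowest in IL6Myc-1 (15.3 ± 1.84 CPM) but highest in IL6Myc-4 (27.2 ± 1.01 CPM), a log2 range of 0.84. Neither was called. The sources used here do not say what sets the entries apart.

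The pore-forming genes were among the steadier members. Bax was 155 ± 0.887 CPM in IL6Myc-2, with all 3 libraries above the rest. In the other 4 lines it lay between 96.1 ± 4.09 CPM (IL6Myc-4) and 110 ± 5.76 CPM (IL6Myc-1, SD, n = 3), and no neighbours in that order differed (edgeR adjusted p from 0.12 to 0.737). The log2 range of Bax was 0.69. Bak1 had the narrowest range of all members, 0.48, with IL6Myc-5 (46.02 ± 2.92 CPM) and IL6Myc-2 (45.4 ± 2.11 CPM) at the top. These did not differ from each other (adjusted p = 0.813), and IL6Myc-3 was lowest at 33.0 ± 0.425 CPM.

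Among the BH3-only genes, Pmaip1 was called between lines. Its libraries held 185, 176 and 178 CPM in IL6Myc-1, against 74.8, 80.7 and 75.8 CPM in IL6Myc-2. IL6Myc-5 followed IL6Myc-1 with 129, 131.5 and 129 CPM. IL6Myc-3 (103 ± 1.5 CPM) and IL6Myc-4 (106 ± 2.58 CPM, SD, n = 3) did not differ from each other (edgeR adjusted p = 0.529). Libraries of IL6Myc-1 and IL6Myc-2 were thus the highest and lowest of all 15, 2.33-fold apart in their means (log2 difference 1.22, adjusted p = 6.34e-14). IL6Myc-2, where this gene was lowest, held the highest levels of 5 of the other entries, Bcl2, Bcl2l1, Bax, Bcl2l11 and Bbc3. The same count was not made over all genes, so it is not read as a trait of the family. Of all 11773 genes tested, 1013 were called higher in IL6Myc-2 against the other lines and 480 lower.

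Bcl2l11, which encodes the broad activator BIM, took the same order of lines as Bcl2l1: IL6Myc-5 lowest, then IL6Myc-3, IL6Myc-1, IL6Myc-4 and IL6Myc-2. Its libraries held 122, 121.5 and 120.3 CPM in IL6Myc-5, compared to 222, 202 and 218 CPM in IL6Myc-2. The libraries of IL6Myc-5 lay below all others. Its log2 range of 0.82 was below the size for a call, and it was 0.62 ± 0.03 lower on the log2 scale in IL6Myc-5 than in the mean of the other lines (SE, edgeR adjusted p = 2.69e-10). Bid, which links death receptors to mitochondria once it is cleaved, was highest in IL6Myc-5, at 41.3, 44.7 and 46.1 CPM, 1.53-fold over the next line. Its other 4 lines lay between 24.3 ± 1.0 and 28.8 ± 1.59 CPM, all below IL6Myc-5 (log2 difference to their mean 0.71 ± 0.05, SE). Bbc3, a p53 target, was lowest in IL6Myc-4 (29.1 ± 0.754 CPM) and highest in IL6Myc-2 (47.3 ± 1.04 CPM, SD, n = 3), a log2 range of 0.70.

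**Figure D2:**
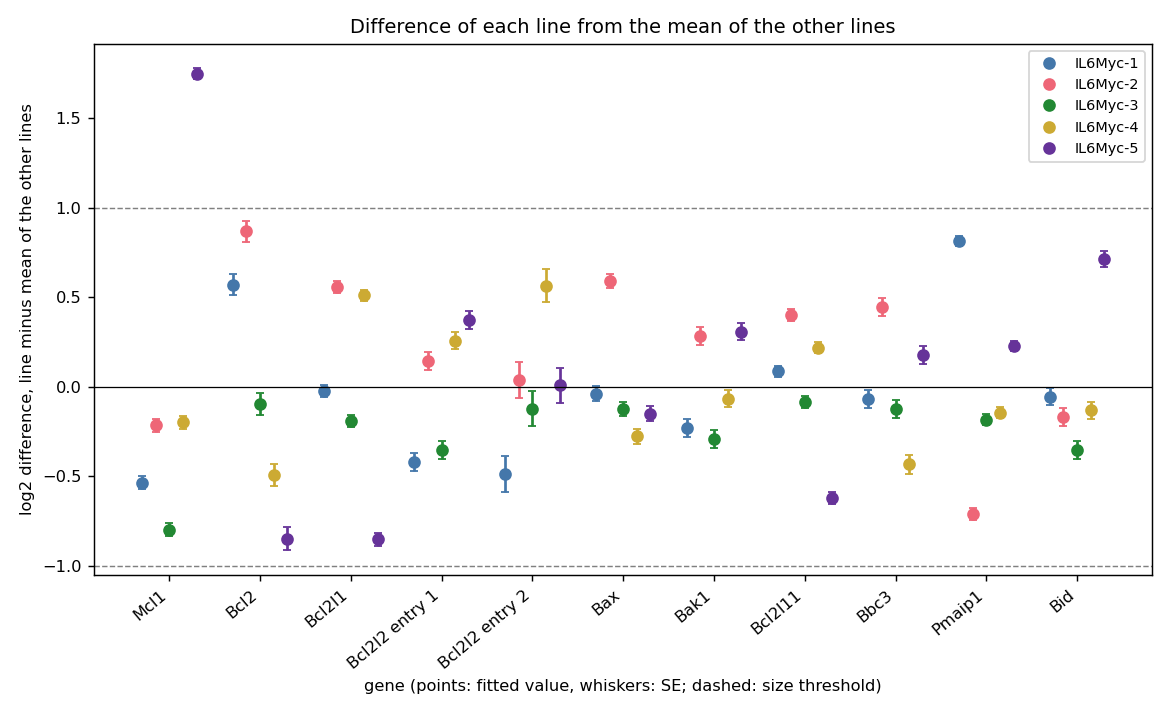
Log2 difference of each line from the mean of the other 4 lines for each family entry (y axis, log2 difference; x axis, entries; points, fitted values; whiskers, SE; dashed lines, the size of 1 needed for a call). Mcl1 in IL6Myc-5 lies at 1.75, outside the dashed lines, while Bcl2 and Bcl2l1 both lie at -0.85 in the same line.

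Across the 10 pairs of lines, every call was of Mcl1, Bcl2, Bcl2l1 or Pmaip1. IL6Myc-2 and IL6Myc-5 differed in 3 of 11 entries (12.2% of all genes were called), IL6Myc-1 and IL6Myc-5 in 2 (14.6%), and IL6Myc-4 and IL6Myc-5 in 2 (11.3%). IL6Myc-3 and IL6Myc-5 differed in 1 (9.86%), IL6Myc-1 and IL6Myc-2 in 1 (19%), and IL6Myc-2 and IL6Myc-4 in 1 (14%). No entry was called between IL6Myc-1 and IL6Myc-3 (11.4%), IL6Myc-1 and IL6Myc-4 (15.7%), IL6Myc-2 and IL6Myc-3 (14%) or IL6Myc-3 and IL6Myc-4 (11.5%) by edgeR, although 7, 10, 10 and 10 of 11 had an unadjusted p under 0.05. Mcl1 was called in each of the 4 pairs with IL6Myc-5 and in no other, with log2 differences of 1.83, 1.57, 2.04 and 1.56 over IL6Myc-1, IL6Myc-2, IL6Myc-3 and IL6Myc-4.

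The ratio of Mcl1 to its relatives within a library put IL6Myc-5 far from the others. Since a ratio of CPM values of different genes carries their lengths, it is compared here between lines alone. Mcl1 over Bcl2l1 was 17.6 in IL6Myc-5 and 2.70 to 3.12 in the other 4 lines. Mcl1 over Bcl2 was 162 in IL6Myc-5, 45.1 in IL6Myc-4 and 20.6 to 25.8 in the other 3. Against the BH3-only genes, Mcl1 over Bcl2l11 was 15.7 in IL6Myc-5 and 2.83 to 3.34 elsewhere. Mcl1 over Pmaip1, the pair of proteins with the preferential binding, was lowest in IL6Myc-1 at 2.98, reached 8.29 in IL6Myc-2, and was highest in IL6Myc-5 at 14.7. Bcl2l1 over Bcl2l11 moved little, from 0.893 ± 0.046 in IL6Myc-5 to 1.19 ± 0.047 in IL6Myc-4 (SD, n = 3).

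The balance of the 2 sides was summarised per library as the mean log2(CPM + 1) of the 4 anti-apoptotic genes minus that of the 6 pro-apoptotic genes, with each gene weighted equally. It is a score over chosen genes and was not tested. IL6Myc-2 and IL6Myc-4 had the highest balance, at 0.96 ± 0.05 and 0.96 ± 0.02 (SD, n = 3). IL6Myc-5 followed at 0.81 ± 0.08, with libraries at 0.76, 0.90 and 0.77. IL6Myc-3 (0.69 ± 0.05) and IL6Myc-1 (0.66 ± 0.02) were lowest. The score of IL6Myc-5 was thus in the middle of the lines although its Mcl1 was the highest. With the median of each side in place of the mean, IL6Myc-5 was the lowest line, at -0.466 from the mean of the other 4. Without Mcl1, IL6Myc-5 was the lowest line at -0.49, against -0.09, 0.24, -0.05 and 0.16 in IL6Myc-1 to IL6Myc-4. Without Pmaip1, the score of IL6Myc-1 went from 0.66 to 0.92, next to 0.98 in both IL6Myc-2 and IL6Myc-5. The positions of IL6Myc-1, IL6Myc-2 and IL6Myc-3 on either side of the mean also turned when further family genes were added: IL6Myc-1 minus the mean of the others went from -0.197 to 0.025, IL6Myc-2 from 0.182 to -0.028 and IL6Myc-3 from -0.155 to 0.048. With these genes IL6Myc-5 was the lowest line too, but the lines lay closer together than in the reported score. Beside the SD of 0.08 between the libraries of IL6Myc-5 in the reported score, this last place is not firm.

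**Figure D3:**
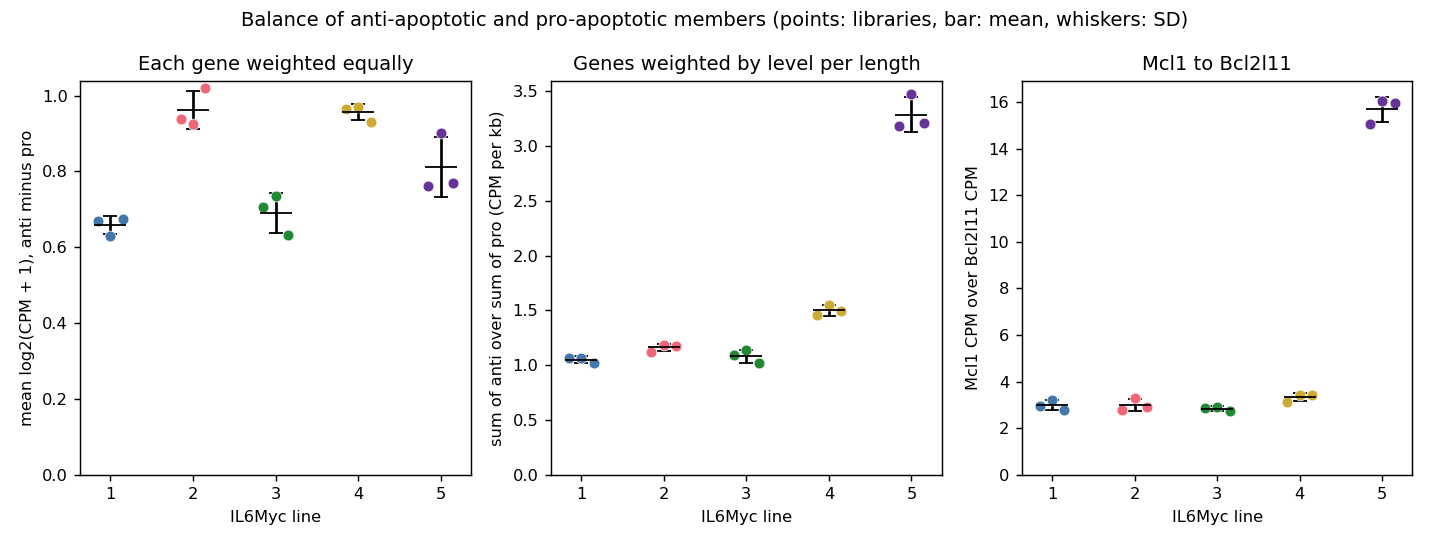
Balance of anti-apoptotic and pro-apoptotic members by line (points, 3 technical replicate libraries; bars, means; whiskers, SD). The y axes are the difference of mean log2(CPM + 1), the ratio of summed CPM per kilobase, and the ratio of Mcl1 CPM to Bcl2l11 CPM. With equal weights IL6Myc-2 and IL6Myc-4 are highest at 0.96, and with summed levels IL6Myc-5 is highest at 3.29.

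Weighting the genes by their level gave another order. For this, CPM was divided by the median length in kilobases of a gene's protein-coding transcripts in GENCODE M21, so that genes could be compared with each other. On that scale Mcl1 was first of the 10 genes in every line, at 890 CPM per kilobase in IL6Myc-5 and 216 to 302 in the other lines. Bax was second and Bcl2 last in every line, the latter at 2.36 to 6.11 CPM per kilobase. The summed anti-apoptotic level over the summed pro-apoptotic level was 3.29 ± 0.16 in IL6Myc-5 (3.18, 3.47 and 3.21 by library), 1.499 ± 0.046 in IL6Myc-4, and 1.05 ± 0.03 to 1.16 ± 0.03 in the other 3 lines (SD, n = 3). Mcl1 held 92.2% of the anti-apoptotic sum in IL6Myc-5 and 69.8% to 72.5% in the others. With Mcl1 left out, the ratio in IL6Myc-5 was the lowest of the lines, 0.256, against 0.289 to 0.444. The pro-apoptotic sum of 294 CPM per kilobase in IL6Myc-5 lay within the 282 to 369 of the other lines. The longest transcript was also used in place of the median, a choice added after the data were seen. The ratios were then 0.887, 0.998, 0.925, 1.32 and 2.49 in IL6Myc-1 to IL6Myc-5, in the same order. The share of Mcl1 in the anti-apoptotic sum was then lower, 88.9% in IL6Myc-5 and 60.95% to 64.1% in the others.

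Mcl1 lies on mouse chromosome 3, and its chromosomal neighbours were high in IL6Myc-5 as well. Genes were ordered along the chromosome by RefSeq on GRCm38.p6, used for order alone, and the 5 nearest tested protein-coding genes on each side were read. Of these 10, 8 were called higher in IL6Myc-5, against 4.8% of all genes. Their median log2 difference was 2.02 (0.57 to 2.36), while the 514 tested genes of chromosome 3 had a median of -0.13. Ctss, which encodes the lysosomal protease cathepsin S, held 1415 ± 90.8 CPM in IL6Myc-5 and 235 to 576 CPM in the other lines. Golph3l held 215 ± 17.5 CPM in IL6Myc-5 against 43.7 to 61.7 CPM. Arnt (log2 difference 1.57), Ensa (1.51), Ecm1 (2.36), Tars2 (1.99), Rprd2 (2.11) and Prpf3 (2.21) were called too, and Setdb1 (0.73) and Adamtsl4 (0.57) were not. In the other 4 lines none of the 10 neighbours was called higher. In IL6Myc-3, 2 of them were called lower (Ctss at -1.20 and Ecm1 at -1.09). The mean behind these calls includes IL6Myc-5, so the lower calls follow in part from the high levels there. They are not read as a separate change in IL6Myc-3.

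The raised genes formed a run from Arnt, 4 genes before Mcl1, to H2ac19, 20 genes after it. The run was delimited by these calls and ends where 3 genes in a row were not called, so it carries no test. Of its 25 genes, Mcl1 included, 24 were called higher in IL6Myc-5, with a median log2 difference of 1.99, and 19 were called higher against each of the other lines singly. Mcl1, at 1.75, lay below that median. Anp32e, 11 genes after Mcl1, held 680 ± 25.7 CPM in IL6Myc-5 and 132 to 196 CPM elsewhere. Of the 10 genes that followed the run none was called, and Txnip among them held 1517 CPM in IL6Myc-5 against 1100 to 2533 CPM in the other lines. On the other side, 8 genes from Gabpb2 to Setdb1 held 1 call. Before them came a second run of 10 called genes, from Selenbp1 to Lysmd1, at a median of 1.36. This second run was also delimited by its calls, so that its calls follow from its definition and carry no test. Outside the run with Mcl1, 31 of the other 489 genes of the chromosome were called higher in IL6Myc-5 (6.34%). These include the 10 genes of the second run, so the percentage is not that of the chromosome away from Mcl1. In the run with Mcl1, IL6Myc-1, IL6Myc-3 and IL6Myc-4 had 0 genes called higher and IL6Myc-2 had 1. Each of these lines was set against a mean that includes IL6Myc-5, so few higher calls follow in part from how the run was chosen. DNA copy number was not analysed here, and its part in the level of Mcl1 was not tested.

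**Figure D4:**
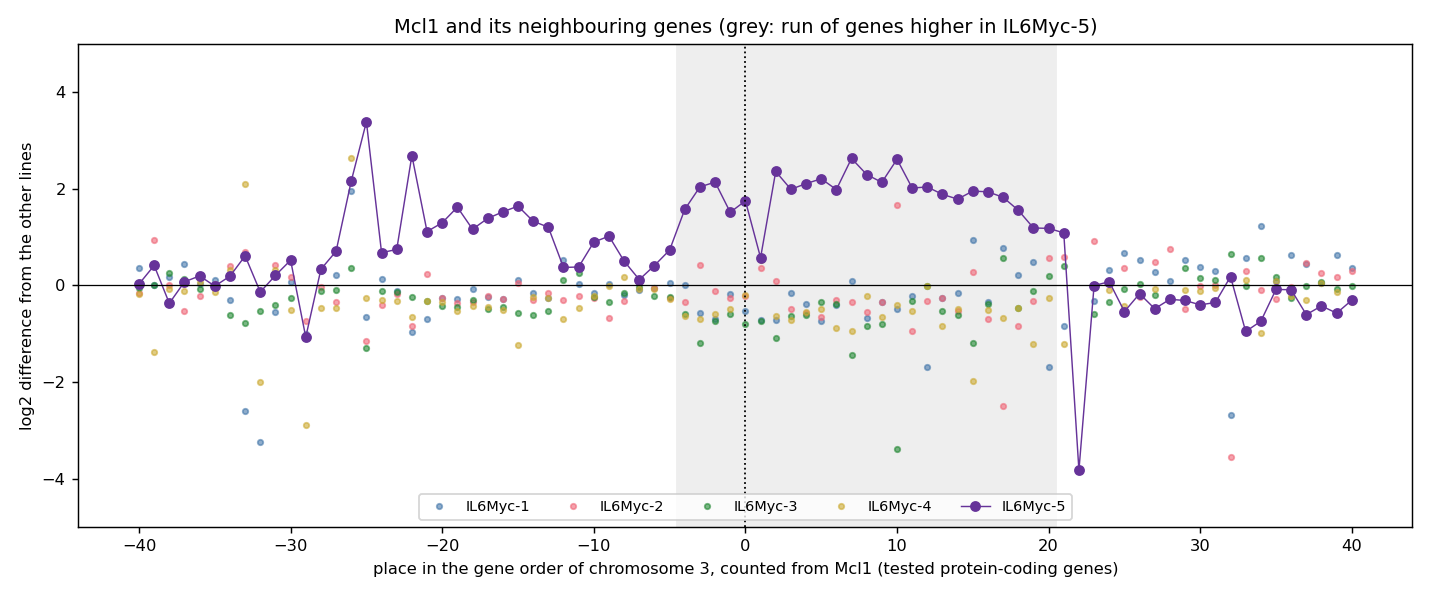
Log2 difference of each line from the mean of the other 4 (y axis) for the 40 tested protein-coding genes on each side of Mcl1, by their order on chromosome 3 (x axis, place in gene order, Mcl1 at 0). In IL6Myc-5 the run around Mcl1 lies at a median of 1.99, and the 10 genes after it lie at a median of -0.30. The 8 genes before it lie at a median of 0.46, and a second run of 10 genes before those lies at 1.36. Grey marks the run with Mcl1, and 6 points beyond the axis limits of 5 and -5 are not shown.

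Apart from Bcl2, no other member had a neighbour called higher in IL6Myc-5. Bcl2l1 and Bcl2l11, both on chromosome 2 and both lower in that line, had neighbours with median log2 differences of -0.21 and -0.05, where the chromosome as a whole stood at -0.10. The neighbours of Bid, which was higher there, had a median of 0.06. For Bcl2 on chromosome 1, 5 of 10 neighbours were called higher in IL6Myc-5 (median 0.68; 4.8% of all genes), opposite in sign to Bcl2 itself at -0.85. Not all of the called neighbours were highest in IL6Myc-5. Phlpp1 held 5.64 CPM there, below the 6.51 to 6.6 CPM of IL6Myc-2 to IL6Myc-4, and 0.0077 CPM in IL6Myc-1. Pam was higher in IL6Myc-1 (4.47 against 3.19 CPM) and Dsel in IL6Myc-2 (4.519 against 2.545 CPM). Zcchc2 and Cdh19 were highest in IL6Myc-5, at 10.6 and 14.2 CPM. In IL6Myc-1 to IL6Myc-4, 2, 2, 4 and 3 of the 10 neighbours of Bcl2 were called higher and 2, 3, 1 and 1 lower.

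In IL6Myc-5, Mcl1 was highest and Bcl2l1 and Bcl2l11 were lowest, whereas in the other 4 lines their ratios to Mcl1 stayed within the narrow ranges given above. The 250 bases before their start sites are therefore shown for these 3 genes, from RefSeq on GRCm38.p6, 5′ to 3′ along the gene's strand. Mcl1 is chr3:95658471-95658720 on the plus strand, Bcl2l1 is chr2:152831729-152831978 on the minus strand at the most upstream of its 3 starts, and Bcl2l11 is chr2:128125788-128126037 on the plus strand at the first of its 2 starts. Capitals mark GC boxes and CCAAT boxes on either strand.
Mcl1: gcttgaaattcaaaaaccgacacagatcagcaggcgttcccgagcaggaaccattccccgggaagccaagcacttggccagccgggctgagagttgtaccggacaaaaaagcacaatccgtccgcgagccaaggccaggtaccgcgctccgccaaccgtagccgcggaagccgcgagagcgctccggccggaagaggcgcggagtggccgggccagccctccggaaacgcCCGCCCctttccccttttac
Bcl2l1: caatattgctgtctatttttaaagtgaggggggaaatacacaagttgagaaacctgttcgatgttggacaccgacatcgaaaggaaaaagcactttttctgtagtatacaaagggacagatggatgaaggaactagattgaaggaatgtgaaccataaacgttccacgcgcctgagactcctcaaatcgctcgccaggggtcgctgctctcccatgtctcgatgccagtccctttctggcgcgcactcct
Bcl2l11: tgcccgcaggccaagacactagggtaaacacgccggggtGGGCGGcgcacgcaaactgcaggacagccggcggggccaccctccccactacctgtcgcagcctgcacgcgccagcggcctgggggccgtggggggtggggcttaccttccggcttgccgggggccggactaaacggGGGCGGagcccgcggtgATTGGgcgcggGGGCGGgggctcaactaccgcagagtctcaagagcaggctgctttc
Windows of 300 bases (250 before to 50 after the start) were searched on both strands for a STAT site (TTCNNNGAA), a cyclic AMP response element (TGACGTCA), an E-box (CACGTG), a GC box (GGGCGG) and a CCAAT box (CCAAT). No searched motif overlaps another in these 3 sequences. Mcl1 held 1 GC box, 20 bases before its stated start, and none of the other motifs. A stretch just after that start was found in no GENCODE M21 transcript of Mcl1 in either direction, so its place is uncertain. The same stretches of Bcl2l1 and Bcl2l11 were found in their transcripts, and those of Bbc3 were not. Bcl2l1 held none of them in any of its 3 windows. The window of Bcl2l11 shown held 3 GC boxes and 1 CCAAT box. Over 32851 windows of the same length, 35.7% held a GC box, 37.4% a CCAAT box, 8.3% a STAT site, 7.15% an E-box and 1.79% a cyclic AMP response element. No STAT site was found in the 14 windows of the 9 members with an entry in the table. A match or its absence describes these letters and says nothing of the binding of a factor.

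The genes with the most similar pattern to a member were found by Pearson's r of log2(CPM + 1) over the 15 libraries, which fall into 5 lines, so that r describes line means in the main. For Mcl1 they were Arsi (r = 0.982, 3.10 CPM in IL6Myc-5 and at most 0.348 elsewhere), its neighbour Golph3l (0.979) and Ddb1 (0.979). For Bcl2 they were Pde4dip (0.984), Nrep (0.970) and Abcd3 (0.963). For Bcl2l1 they were Hepacam2 (0.987), Gdap2 (0.969) and Mst1 (0.961). For Pmaip1 they were Txnl1 (0.983), the AP-1 subunit gene Jun (0.979) and Nup188 (0.978).

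Of the further BCL2 family genes, 8 of 16 passed the filter on low values and 4 of these were called over the lines (background 32.1%). Bnip3, a mitophagy receptor gene induced by hypoxia, held 229 CPM in IL6Myc-1 and 167 in IL6Myc-5 but 44.9 to 61.3 in the other lines, and was called higher in both against the rest (log2 difference 1.69 and 1.12). Its paralog Bnip3l ran from 49.6 to 111 CPM. Bik, a BH3-only gene, was called higher in IL6Myc-2 (7.30 CPM, log2 difference 2.12) and lower in IL6Myc-1 (0.777 CPM, -1.99). Bmf, another BH3-only gene, was lowest in IL6Myc-3 at 38.5 CPM and highest in IL6Myc-5 at 86.98 CPM. Of the Bcl2a1 genes, which encode the anti-apoptotic protein A1 in mouse, Bcl2a1a and Bcl2a1d held 0 counts in all 15 libraries. Hrk held 0 counts as well.

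Downstream of the pore, 12 of 13 genes of the apoptosome, caspases and inhibitors of apoptosis were tested and 4 were called over the lines, near the background of 32.1%. Casp6, an executioner caspase, was called higher in IL6Myc-2 (13.7 CPM, log2 difference 2.999) and IL6Myc-4 (7.63 CPM, 1.95), and lower in IL6Myc-1 (0.497 CPM, -2.85) and IL6Myc-5 (0.891 CPM, -1.91). Birc3, an inhibitor of apoptosis under NF-kB control, was called higher in IL6Myc-2 at 139 CPM (log2 difference 1.13) and was 46.6 to 85.9 CPM in the other lines. Birc2 was also highest in IL6Myc-2, at 152 CPM against 71.5 to 94.3, with a log2 difference of 0.87 to the other lines that is below the size for a call.

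The last lists hold genes that act on the MCL1 protein or on transcription of the family. Of 7 genes of MCL1 turnover 5 were tested and, against 32.1% of all genes, none was called over the lines by edgeR, with log2 ranges of at most 0.74, while 3 had an unadjusted p under 0.05. Huwe1, the ubiquitin ligase also known as MULE, held 224 to 254 CPM, and Usp9x, a deubiquitinase of MCL1, held 135 to 154 CPM. Of 11 transcription factor genes, all tested, 3 were called over the lines, near the background of 32.1%. Ddit3 (CHOP) was called lower in IL6Myc-4 (5.46 CPM, log2 difference -1.33). Trp73 was called in 4 lines at levels of 0.358 to 2.28 CPM. Stat5a was lowest in IL6Myc-1 (13.8 CPM) and highest in IL6Myc-2 (32.4 CPM). Stat3, the main transcription factor downstream of IL6, was not called and lay between 107 and 168.5 CPM, with IL6Myc-2 the highest.

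**Figure D5:**
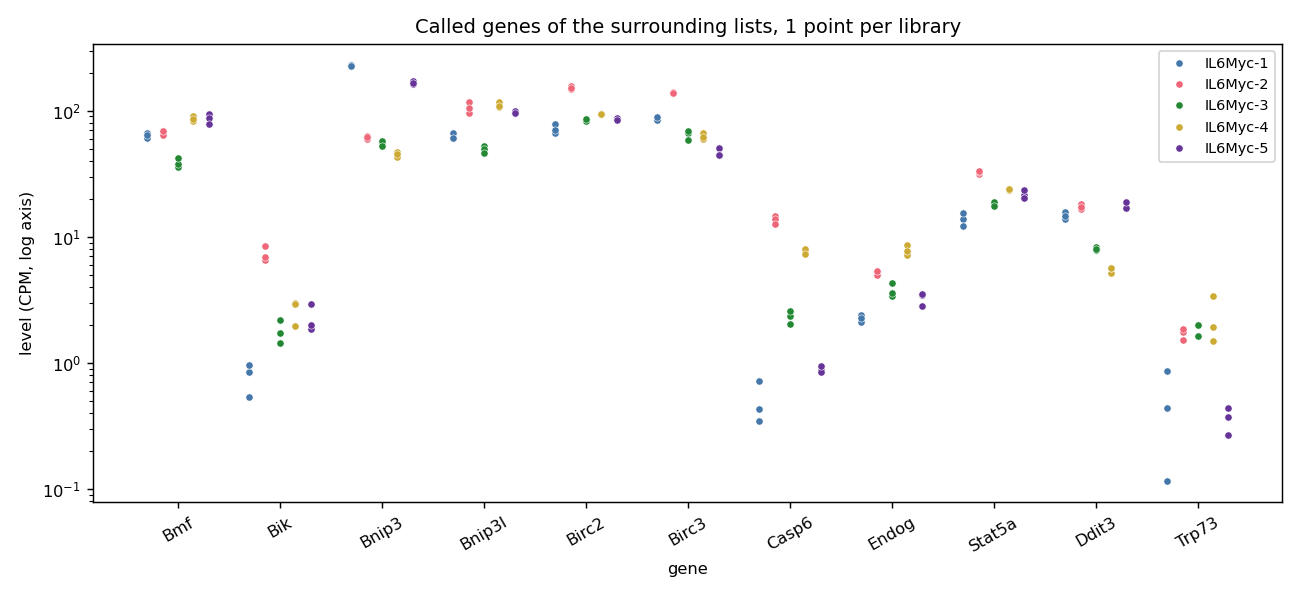
Level of the called genes of the further BCL2 family, apoptosome and transcription factor lists (y axis, CPM on a log scale; x axis, genes; points, libraries, coloured by line; values of 0 are left out). Line means of Casp6 spread from 0.497 to 13.7 CPM and those of Bik from 0.777 to 7.30 CPM.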

How the data were processed

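Per the labels, 3 technical replicate libraries of each of 5 cell lines were sequenced, from RNeasy RNA and with TruSeq Stranded Total RNA chemistry. The submitters' processing notes name Trim Galore 0.4.0, DESeq2 and GRCm39. An aligner, quantifier or annotation is not given in the sources used here. Although the table is named for TPM, the deposited values were taken as estimated counts: column sums differ (19068543 to 41165599), and 30.8% to 54.3% of values above 0 and under 1.5 lie within 0.02 of 1. They were rounded, scaled by TMM (factors 0.848 to 1.08) and tested with edgeR 4.0.16 (R 4.3.3, quasi-likelihood) over 11773 entries with at least 1 CPM in 3 libraries, with line as the factor and Benjamini-Hochberg adjustment over all of them. Calls needed an adjusted p under 0.05 and a log2 difference of at least 1. Counts of libraries of a line differed by more than sampling noise (chi-square per degree of freedom 4.33 to 18.4), so all 3 were kept as replicates. The members and lists were chosen with earlier results of these data known. A gene of the lists is not reported here. Named genes were the members, list genes called over the lines (others by range), and the 3 genes of highest r for each called member; the genes around Mcl1 on chromosome 3 were added after their values were seen. Alternatives used DESeq2 1.42.0, limma 3.58.1, other filters, pseudocounts and a replicate block. The tests were checked on simulated data.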

Additional observations from a re-analysis of the deposited data

How the results depend on the processing

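The number of members called was unchanged under every alternative in the comparison over the lines (4) and in each line against the others (1 in IL6Myc-5 and 0 in the rest): other size factors, 2 other filters, DESeq2, limma, the replicate block and leaving out each library in turn. In pairs of lines it changed with limma on log2(CPM + 5) alone, to 1 for IL6Myc-1 and IL6Myc-5 (2 as reported) and to 0 for IL6Myc-2 and IL6Myc-4 (1 as reported), where the log2 difference of Bcl2 fell to 0.88 under a larger pseudocount. Counts over all genes moved more. Among the lines, 3783 genes as reported became 2449 with a filter of 5 CPM and 1594 with limma on log2(CPM + 5). For IL6Myc-1 to IL6Myc-5 against the others, 1472, 1493, 901, 1136 and 940 genes became 2225, 2413, 1548, 1752 and 1489 with no filter, 873, 844, 480, 645 and 495 with the filter of 5 CPM, 923, 935, 426, 668 and 491 with limma on log2(CPM + 1), and 366, 410, 150, 265 and 170 with limma on log2(CPM + 5). A filter or pseudocount changes which low genes can be called, and the background percentages move with it. The balance depends on how genes are weighted. With further family genes added, the difference of a line from the other 4 was 0.025 in IL6Myc-1, -0.028 in IL6Myc-2, 0.048 in IL6Myc-3 (all of opposite sign to the reported values) and 0.011 in IL6Myc-4. IL6Myc-5 was then the lowest line, but the lines lay closer together than in the reported score. Added were the Bcl2a1 genes and further pro-apoptotic genes, without Bnip3 and Bnip3l. Among them Bcl2a1a, Bcl2a1d and Hrk held 0 counts. With the median of each side it was -0.24, 0.387, 0.481 and -0.466 in IL6Myc-1, IL6Myc-2, IL6Myc-4 and IL6Myc-5, which made IL6Myc-5 the lowest line. The cause was not tested.

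The replicate numbers did not pair the libraries: correlations of the deviations of same-numbered libraries ran from -0.084 to 0.110, and 1 of 30 was over 0.1. With the number as a replicate block, 3785 genes and 4 members were called over the lines, and no call of a member changed. 5 of 15 libraries correlated best with a library of their own number.

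Estimated counts, 1 unit per line and an unknown quantifier limit all of these values. RNA levels carry no information on protein, and technical replicates none on the variation between cultures.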
